A study of Mus musculus with 4 samples.

Results

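Genes that encode acute phase plasma proteins of the mouse liver were followed, namely Saa1, Saa2, Saa3, Lcn2, Orm1, Orm2, Orm3, Hp, Hpx and Apcs. They were taken by gene name from the probes of a microarray, as 10 of the 37074 genes named on it, and were measured by 12 probes, because Lcn2 and Orm3 had 2 probes each. All 12 probes were well above background on all 4 arrays, none was saturated, and no member was lost to a filter on low signals.

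The acute phase response is the change in plasma proteins that follows infection, tissue injury or other inflammation. Interleukin-6 family cytokines act on hepatocytes through Jak kinases and Stat3, interleukin-1 and tumor necrosis factor act through NF-kB, and the C/EBP factors Cebpb and Cebpd bind many of the target promoters. The liver then secretes apolipoproteins of the serum amyloid A family, lipid-binding lipocalins, scavengers of hemoglobin and heme, and pentraxins, which recognize microbial and apoptotic surfaces, while it makes less of others such as albumin.

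The study compared wild-type C57BL/6 mice, labeled as 6 weeks old, that were injected i.p. on 5 days a week for 3 weeks. Females received aristolochic acid I (AAI), a nephrotoxic compound of Aristolochia plants, at 5 mg/kg/day, males received AAI at 2 mg/kg/day, and a corn oil-treated group of each sex served as vehicle control. Liver RNA from 5 mice of each group was pooled in equal parts and hybridized to 1 single-color array per group, so that there was no replicate, no test was possible, and sex and dose cannot be told apart in the AAI-treated groups. The same corn oil arrays served as controls of the AAI-treated groups and for the comparison between the sexes, which therefore share arrays.

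Signals are given as log2 of the processed intensity after quantile normalization over the 4 arrays, ratios as differences of these log2 signals, and folds as 2 to the power of the size of the ratio. A gene was counted as higher or lower at a fold of 2 or more. Signals of different probes are not comparable with each other, so that the signals of a gene are compared as the 4 values of 1 probe. Linear signals summed over a marker list are given only to compare the pools, and such a sum is set mostly by the brightest probes of its list. The spread within the arrays was taken from different probes of 1 gene and from repeated spots of 1 probe. Where a gene had several probes, their log2 ratios had a median SD of 0.25 in females and 0.24 in males, over 9128 and 8618 genes, and the log2 signals of repeated spots of 1 probe had a median SD of 0.0451 to 0.0845 on the 4 arrays. Neither measure includes the variation between mice or between hybridizations, and the first also holds differences between the probes themselves. A ratio larger than this spread is therefore not shown to exceed the error of a comparison between arrays. On the 4 arrays, 74.6% to 81.4% of probes were called well above background by the scanner software.

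The liver RNA pools differed in transcripts of other tissues. All 12 hepatocyte marker genes were well above background on all arrays and none was counted between AAI- and corn oil-treated pools of either sex. All 10 skeletal muscle marker genes were higher in both AAI-treated pools, and their summed linear signal under AAI and corn oil was 44741 against 947 in females and 359286 against 5422 in males. The sum of the 11 adrenal gland markers was 51558 against 7568 in males and 7554 against 6332 in females. The sum of the 12 fat markers was 110961 against 64798 in males and 37929 against 34491 in females. The brightest gene of this list in every pool but AAI-treated males was Car3. It was lower in AAI-treated males, with log2 signals of 15.69 under corn oil and 13.78 under AAI, while 7 of the 12 were higher. The male sums therefore understate the difference in those 7 genes. With 1 array per group no value can be given without the pool concerned, and the part of these tissues in the values below was not tested. In pooled tissue RNA, more cells of a type and more RNA per cell cannot be told apart.

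The probes are 60 bases long, are annotated on mouse genome build mm9, and are shown where their letters bear on the reading of the values. The orosomucoid genes are neighbors on chromosome 4 and encode closely related proteins. The Orm1 probe is annotated with the transcripts of both Orm1 and Orm2, so that its signal may come from both genes. It overlaps the brighter Orm3 probe over 52 bases, of which 46 (88.5%) are equal. Capitals mark the bases of this overlap that differ. No other pair among the 66 pairs of member probes was more than 50.0% equal over at least 30 bases, and no other probe on the array shared 20 bases in a row with a member probe. The probes for Saa1 and Saa3, given as examples from the serum amyloid family, were equal at 20 of 50 overlapping bases, and those for Saa1 and Saa2 at 13 of 31. Such likeness between probes does not show which transcripts a probe binds. Whether the Orm1 and Orm3 probes also bind transcripts of the other gene was not tested. The Orm1 probe lies on the plus strand of chr4:63007395-63009038 and the Orm3 probe on the plus strand of chr4:63018910-63020393, so that the 60 bases of each probe are split over 1644 and 1484 bases of the genome. The Saa1 probe lies on the minus strand of chr7:53996070-53996129 and the Saa3 probe on the minus strand of chr7:53967559-53967618.
Orm1 probe: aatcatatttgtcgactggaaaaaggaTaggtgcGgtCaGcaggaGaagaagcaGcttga
Orm3 probe: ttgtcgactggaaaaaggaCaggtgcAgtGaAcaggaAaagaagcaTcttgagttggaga
Saa1 probe: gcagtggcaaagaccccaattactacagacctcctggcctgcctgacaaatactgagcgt
Saa3 probe: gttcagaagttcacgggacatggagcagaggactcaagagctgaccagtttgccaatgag

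Promoter windows of 250 bases before to 50 bases after a transcript start were held by RefSeq (GRCm38.p6) for 8 of the 10 members, without Orm1 and Hp. They were searched on both strands for the C/EBP letters TTGCNNAA, the STAT letters TTCNNNGAA and the NF-kB consensus, where N is any base. The C/EBP letters were found in 7 of the 8 windows and in 10.8% of the 32851 windows of all genes. The STAT letters were found in 1 of the 8, that of Apcs, and in 8.3% of all windows, and the NF-kB consensus in 0 of the 8 and in 4.51% of all. The 7 matches are not independent, because the Saa1 and Saa2 windows were 95.3% equal after alignment and those of Orm2 and Orm3 86.6%, against 48.0% to 54.2% in the other 26 pairs. The Saa1 and Saa2 windows lie on opposite strands with 8352 bases between them. A match of letters is a description and does not show that a factor binds there.

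The windows of the 6 members that were counted at 2-fold in AAI-treated mice of at least 1 sex are shown for comparison, 5′ to 3′ on the strand of the gene, with the C/EBP or STAT letters in capitals. Saa1 lies at chr7:46742931-46743230 on the minus strand, Saa2 at chr7:46751583-46751882 on the plus strand, Saa3 at chr7:46715627-46715926 on the minus strand, Lcn2 at chr2:32387690-32387989 on the minus strand, Orm3 at chr4:63355908-63356207 on the plus strand and Apcs at chr1:172895005-172895304 on the minus strand.
Saa1 promoter: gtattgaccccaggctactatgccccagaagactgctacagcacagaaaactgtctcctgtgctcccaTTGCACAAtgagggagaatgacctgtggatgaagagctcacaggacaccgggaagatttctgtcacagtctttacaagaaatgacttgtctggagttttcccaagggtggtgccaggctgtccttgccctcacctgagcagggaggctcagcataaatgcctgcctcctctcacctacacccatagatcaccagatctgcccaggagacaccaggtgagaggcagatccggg
Saa2 promoter: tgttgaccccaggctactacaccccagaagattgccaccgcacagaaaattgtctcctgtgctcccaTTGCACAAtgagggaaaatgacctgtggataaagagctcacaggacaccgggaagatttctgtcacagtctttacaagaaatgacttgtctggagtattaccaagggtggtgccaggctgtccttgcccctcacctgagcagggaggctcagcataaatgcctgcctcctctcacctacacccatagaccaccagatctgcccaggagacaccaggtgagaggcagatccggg
Saa3 promoter: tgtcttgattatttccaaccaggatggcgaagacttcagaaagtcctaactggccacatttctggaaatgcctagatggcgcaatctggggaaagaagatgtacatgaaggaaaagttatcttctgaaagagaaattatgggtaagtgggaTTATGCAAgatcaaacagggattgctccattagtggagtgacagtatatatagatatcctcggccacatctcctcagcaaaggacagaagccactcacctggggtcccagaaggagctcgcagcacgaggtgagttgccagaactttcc
Lcn2 promoter: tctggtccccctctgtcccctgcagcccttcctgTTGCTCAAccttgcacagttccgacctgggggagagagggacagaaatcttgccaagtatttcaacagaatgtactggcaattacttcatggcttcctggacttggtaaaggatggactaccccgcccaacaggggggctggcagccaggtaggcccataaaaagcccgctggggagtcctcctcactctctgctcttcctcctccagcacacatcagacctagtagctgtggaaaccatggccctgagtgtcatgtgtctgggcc
Orm3 promoter: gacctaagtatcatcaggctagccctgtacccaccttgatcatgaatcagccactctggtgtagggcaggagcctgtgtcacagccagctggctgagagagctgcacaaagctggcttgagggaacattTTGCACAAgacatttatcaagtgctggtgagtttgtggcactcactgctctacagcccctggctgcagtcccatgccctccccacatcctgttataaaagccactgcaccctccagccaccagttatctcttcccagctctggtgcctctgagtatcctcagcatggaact
Apcs promoter: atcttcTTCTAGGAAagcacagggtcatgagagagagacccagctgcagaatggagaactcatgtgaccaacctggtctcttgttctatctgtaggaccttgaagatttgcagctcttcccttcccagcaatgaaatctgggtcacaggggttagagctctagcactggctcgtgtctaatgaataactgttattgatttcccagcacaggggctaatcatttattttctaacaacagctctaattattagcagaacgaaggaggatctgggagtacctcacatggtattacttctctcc

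The C/EBP letters began 182 bases before the start in Saa1 and 183 in Saa2, in the same aligned stretch, and 99 bases before it in Saa3. They began 121 bases before the start in Orm3, 120 in Orm2, 200 in Hpx and 216 in Lcn2. Members with these letters differed in their array values, since Hpx and Lcn2 both hold them and had the lowest and the highest ratio of the 10 members in males.

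**Figure D1:**
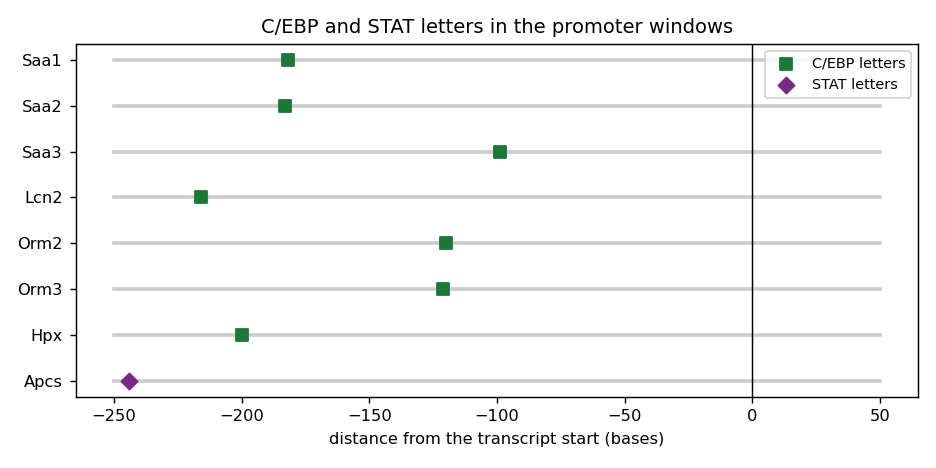
Position of the C/EBP letters (squares) and the STAT letters (diamond) in the promoter windows of 8 acute phase genes, as the distance in bases of the first matched base from the transcript start (vertical line), with each window as a gray line from 250 bases before to 50 bases after it. The matches of Saa1 and Saa2 lie 182 and 183 bases before the start, and Apcs is the window without C/EBP letters.

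Among the serum amyloid A genes, Saa1 and Saa2, which encode the forms that the liver secretes on high density lipoprotein, were far higher in AAI-treated than in corn oil-treated males, while both were lower in AAI-treated than in corn oil-treated females. The log2 signal of Saa1 (NM_009117) was 15.04 in males given corn oil, 17.90 in males given AAI, 14.94 in females given corn oil and 14.15 in females given AAI. For Saa2 (NM_011314) it was 15.72 in males given corn oil, 18.69 in males given AAI, 15.37 in females given corn oil and 14.20 in females given AAI. AAI-treated males thus had the highest and AAI-treated females the lowest signal of both genes, with the control pools between them.

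In males the Saa1 ratio was 2.86, a 7.26-fold higher signal, and the Saa2 ratio 2.97, a 7.84-fold higher signal. In females Saa1 was 1.74-fold lower, with a ratio of -0.80, and Saa2 2.26-fold lower, with a ratio of -1.18. All 4 ratios are larger than the spread between probes of 1 gene, whereas the corn oil-treated pools of both sexes differed by -0.10 in Saa1, which changed sign between -0.17 and 0.19 over the processing alternatives, and by -0.34 in Saa2. The female Saa2 count depended on the scanner's trend correction, which was not applied on the array of AAI-treated females. The processed intensity and the mean intensity of the Saa2 spot were 19755 and 19795 on that array and 42400 and 34700 on that of corn oil-treated females. Without this correction the ratio was -0.88, under a 2-fold difference. RefSeq lists Saa2 as an older name of Saa1 and Saa1 as an older name of Saa2, and whether either probe also binds transcripts of the other gene was not tested.

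Saa3 (NM_011315), which is expressed in macrophages and fat as well as in the liver, did not follow Saa1 and Saa2 in males. Its log2 signal was 12.19 in males given corn oil, 12.42 in males given AAI, 12.73 in females given corn oil and 11.57 in females given AAI. The male ratio of 0.23 lies within the spread between probes, and the female ratio of -1.16 corresponds to a 2.24-fold lower signal. AAI-treated females were the lowest pool for all 3 serum amyloid genes. Of the 11 macrophage and Kupffer cell markers, 7 were lower in AAI-treated females, with a summed linear signal of 67636 against 149731 in corn oil-treated females, and 2 were lower in AAI-treated males, with 85693 against 129475. Over all genes 3.09% were lower in females and 4.59% in males. Among the markers Cd5l, a secreted macrophage protein, had ratios of -1.77 in females and -1.04 in males, the latter past 2-fold in 4 of 8 processing settings, and Lyz2, the macrophage lysozyme and the brightest of the list, -1.28 and -0.39, with -1.51 and 0.02 on its dimmer probe. The part of these cells in the Saa3 values was not tested.

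Lcn2, the iron siderophore-binding lipocalin that hepatocytes secrete and neutrophils store in granules, had the largest male ratio of the 10 members. On its brighter probe (NM_008491) the log2 signal was 10.56 in males given corn oil, 14.61 in males given AAI, 13.01 in females given corn oil and 13.17 in females given AAI. The dimmer probe gave 7.54, 12.81, 11.17 and 11.33 in the same order. Both probes put the corn oil-treated males lowest, the female pools close together and the AAI-treated males highest. In males the ratio was 4.05, a 16.6-fold higher signal that ranked 71 of 28433 genes well above background on both male arrays, and the dimmer probe gave 5.27. In females the ratio was 0.16, which is within the spread between probes and was -0.02 with scaling to the median of the array.

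Between the corn oil-treated pools Lcn2 was 5.49-fold higher in females than in males, and 12.4-fold higher by the dimmer probe. It ranked 40 of the 29111 genes well above background on both control arrays. Neutrophil markers also differed between these pools. Of the 11 that were tested, 4 were higher in corn oil-treated females than in corn oil-treated males, where 1.86% of all genes were higher. These were Retnlg, S100a8, S100a9 and Cxcr2 with ratios of 2.58, 2.45, 2.16 and 1.46, the last past 2-fold in 7 of 8 processing settings. The other 7 were not counted, with 0.95 for Ly6g, 0.52 for Mmp8, 0.38 for Camp, 0.08 for Elane, -0.05 for Csf3r, -0.31 for Mpo and -0.61 for Ltf. In AAI-treated against corn oil-treated males, where 3.51% of all genes were higher, 4 of the 11 were higher. They were Retnlg, S100a8, S100a9 and Cxcr2 with ratios of 1.77, 1.44, 1.24 and 1.09. The male Cxcr2 ratio ran from 0.25 to 1.22 and passed 2-fold in 6 of 8 processing settings. The other 7 were not counted in males. Their ratios were 0.80 for Mmp8, 0.41 for Ly6g, 0.16 for Camp, 0.06 for Elane, -0.11 for Csf3r, -0.57 for Ltf and -0.66 for Mpo. S100a8, a calcium-binding protein of neutrophil cytosol, had log2 signals of 10.69 in males given corn oil, 12.13 in males given AAI, 13.14 in females given corn oil and 13.48 in females given AAI. The summed linear signal of the neutrophil list was 34786 and 43455 in corn oil- and AAI-treated males and 60419 and 63498 in corn oil- and AAI-treated females. Csf3r, the brightest of the list, gave the largest part of both male sums, with log2 signals of 14.52 under corn oil and 14.41 under AAI. Its male ratio of -0.11 changed sign between -0.11 and 0.10 over the settings, so that the male sums understate the difference in the counted markers. For S100a8 AAI-treated males lay below both female pools and for Lcn2 above both. The granule gene Ngp was called well above background in AAI-treated females only, but its log2 signal there was 4.53 against 4.44 in corn oil-treated females. In males it was dim, with 3.57 under AAI and 2.73 under corn oil. The part of neutrophils in the Lcn2 values was not tested.

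The orosomucoids, plasma lipocalins that carry small hydrophobic molecules, had ratios above 0 in both sexes, and Orm3 was the 1 of the 3 genes that was counted as higher. The log2 signal of the brighter Orm3 probe (NM_013623) was 10.24 in males given corn oil, 13.26 in males given AAI, 12.03 in females given corn oil and 13.20 in females given AAI. The dimmer probe gave 6.28, 8.13, 7.44 and 8.51 in the same order. On the brighter probe the AAI-treated pools of both sexes reached nearly the same signal from unequal controls. The Orm3 ratio was 3.01 in males, an 8.08-fold higher signal, and 1.17 in females, a 2.25-fold higher signal, and the dimmer probe gave 1.85 and 1.06. In females the ratio was 0.998 with scaling to the median of the array, just under a 2-fold difference. Between the controls Orm3 was 3.44-fold higher in females, and 2.23-fold higher by the dimmer probe.

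Orm1 and Orm2 differed less. The log2 signal of the Orm1 probe (NM_008768), which may also include that of Orm2, was 17.43 in males given corn oil, 17.88 in males given AAI, 17.16 in females given corn oil and 17.49 in females given AAI. That of the Orm2 probe (NM_011016) was 15.73 in males given corn oil, 16.60 in males given AAI, 15.68 in females given corn oil and 16.36 in females given AAI. In both genes each AAI-treated pool lay above both corn oil-treated pools, and no difference reached 2-fold with quantile normalization. For Orm1 the signals of AAI-treated females (17.49) and corn oil-treated males (17.43) differed by less than the spread between probes of 1 gene. The Orm1 ratio was 0.33 in females and 0.45 in males, and the Orm2 ratio was 0.68 and 0.87, which reached 1.09 in males with scaling to the 75th percentile of the array. Between the controls the Orm2 ratio of females over males was -0.05 and changed sign between -0.07 and 0.24 over the alternatives, and the Orm1 ratio was -0.27.

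The scavengers of hemoglobin and heme differed little between the pools. The log2 signal of Hp (NM_017370), haptoglobin, which binds free hemoglobin, was 18.04 in males given corn oil, 18.58 in males given AAI, 18.22 in females given corn oil and 18.47 in females given AAI. Hpx (NM_017371), hemopexin, which binds free heme, had log2 signals of 18.18 in males given corn oil, 18.37 in males given AAI, 18.05 in females given corn oil and 18.40 in females given AAI. Each AAI-treated pool lay above both control pools in both genes, by less than 2-fold throughout. The Hp ratio was 0.25 in females and 0.54 in males, and the Hpx ratio was 0.35 in females and 0.19 in males, of which only the male Hp and the female Hpx ratio exceed the spread between probes. Over the processing alternatives the female Hpx ratio ran from 0.11, within this spread, to 0.47, and the female Hp ratio from 0.04 to 0.27. The 4 signals of Hp and of Hpx reached 18.58 and 18.40, near the highest signal of an array at 19.38, and how far the array can show differences at this brightness was not tested.

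Apcs (NM_011318) encodes serum amyloid P component, the pentraxin that takes the place of C-reactive protein as a major acute phase reactant in mice. Its log2 signal was 11.9985 in males given corn oil, 13.85 in males given AAI, 12.87 in females given corn oil and 14.08 in females given AAI. Both AAI-treated pools lay above both controls, and AAI-treated females had the highest signal. The ratio was 1.21 in females, a 2.31-fold higher signal that ranked 175 of 29714 genes, and 1.85 in males, a 3.61-fold higher signal that ranked 285 of 28433. Between the controls the signal was 1.84-fold higher in females, with a ratio of 0.88 that was 1.01 with scaling to the 75th percentile of the array.

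**Figure D2:**
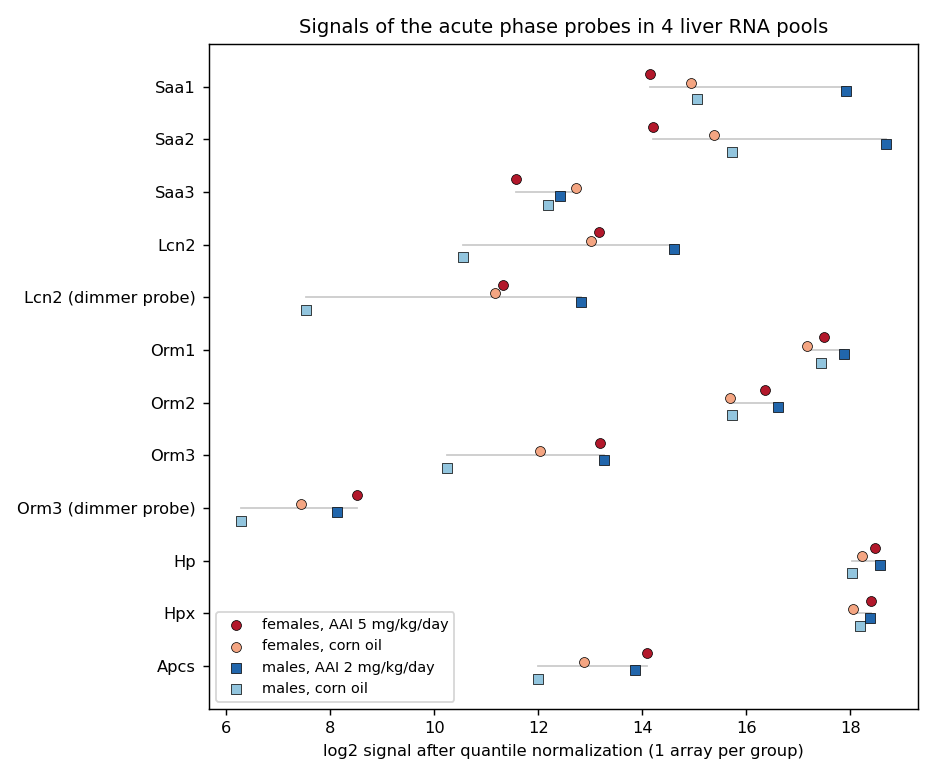
Log2 signal after quantile normalization of each of the 12 probes of the acute phase genes in the 4 liver RNA pools, with 1 point per array (circles for females, squares for males, dark for AAI and light for corn oil) and a gray line over the range of a probe. Points are set apart vertically within a row, rows of different probes are not comparable in level, and AAI-treated males were the highest pool for Saa1, Saa2 and both Lcn2 probes.

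In AAI-treated against corn oil-treated females, 2 of the 10 members were higher at 2-fold, Orm3 and Apcs, and 2 were lower, Saa2 and Saa3. Among all 31682 genes tested 4.46% were counted, 1.37% as higher and 3.09% as lower. These were 434 higher and 978 lower genes, and 623 and 742 with scaling to the 75th percentile of the array. The median log2 ratio of the members was 0.29 and that of all genes 0.04. In males 5 of the 10 members were higher, namely Saa1, Saa2, Lcn2, Orm3 and Apcs, and 0 were lower, where 8.1% of 30539 genes were counted, 3.51% as higher and 4.59% as lower. The median of the members was 1.36 and that of all genes 0.00, and all 10 ratios were above 0. No test stands behind these counts, and Orm3 and Apcs were the members counted as higher in both sexes.

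In corn oil-treated females against corn oil-treated males, 2 of the 10 members were higher, Lcn2 and Orm3, and 0 were lower, where 5.69% of 30891 genes were counted, 1.86% as higher and 3.83% as lower. The median of the members was 0.07 and that of all genes 0.03. Over all 4 pools, 7 of the 10 members had their highest signal in AAI-treated males, 2 in AAI-treated females and Saa3 in corn oil-treated females, and 4 had their lowest signal in corn oil-treated males, 3 in corn oil-treated females and the 3 serum amyloid genes in AAI-treated females. The members with the widest span over the pools were Saa2, with 4.49 on the log2 scale, and Lcn2, with 4.05 on its brighter probe and 5.27, more than Saa2, on its dimmer probe. The narrowest were Hpx with 0.35 and Hp with 0.54.

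**Figure D3:**
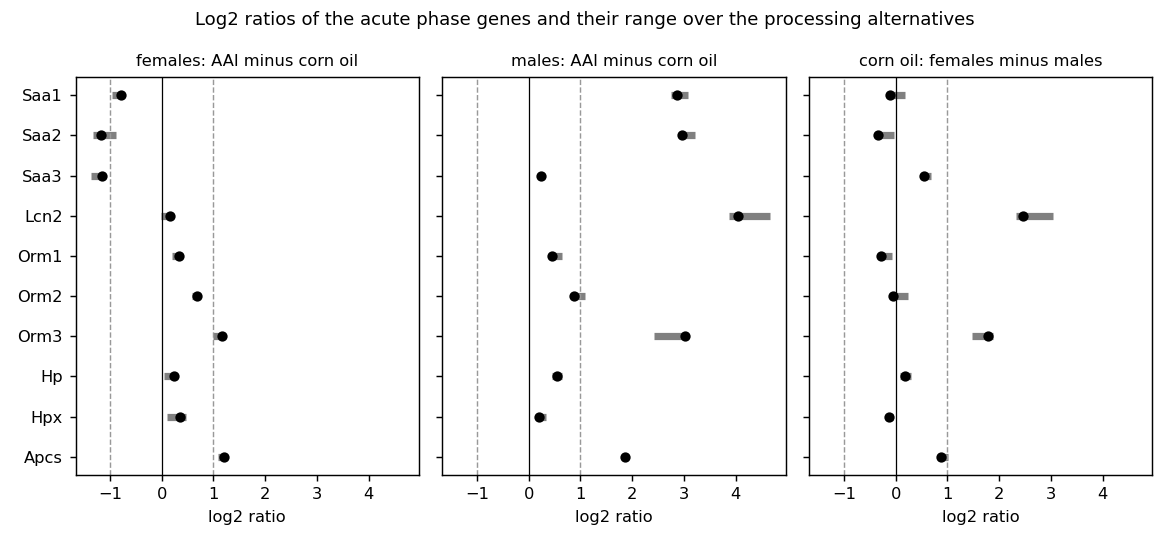
Log2 ratio of each acute phase gene (points) in AAI-treated against corn oil-treated females, AAI-treated against corn oil-treated males, and corn oil-treated females against males, with the range over the processing alternatives as gray bars and a 2-fold difference as dashed lines. Saa1 and Saa2 lie on opposite sides of 0 in the sexes, and the corn oil arrays are shared between panels.

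The genes whose 4 mean-centered log2 signals lay nearest to those of Saa2 and Lcn2 were sought among 28233 genes well above background on all 4 arrays, by Euclidean distance. Nearest to Saa2 was Saa1, at a distance of 0.56, followed by A430034D21Rik at 0.77 and Efhd1 at 0.82. Nearest to Lcn2 was Cux2 at 0.87, followed by Vldlr at 0.92 and Sult1e1 at 0.93. Cux2, a homeobox transcription factor gene, had log2 signals of 5.53 in males given corn oil, 8.78 in males given AAI, 8.40 in females given corn oil and 8.01 in females given AAI. Each distance rests on 4 arrays and is a description.

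Of 25 other genes that are higher in the plasma protein response of the liver, 24 were tested, and 0 were higher and 5 lower in AAI-treated females, while 5 were higher and 0 lower in AAI-treated males. Over all genes 1.37% were higher and 3.09% lower in females, and 3.51% and 4.59% in males. The 24 tested genes had a median ratio of 0.14 in females and 0.39 in males. The metallothionein genes Mt1 and Mt2, which encode zinc-binding proteins, and Hamp2, a hepcidin gene, were lower at 2-fold in females but higher in males. The ratio of Mt2 was -2.55 in females and 3.17 in males, that of Hamp2 -2.10 and 1.92, and that of Mt1 -1.62 and 2.04 on its brighter probe. A dimmer Mt1 probe gave 0.09 in females and 1.65 in males, so that the probes disagree in females, where the Mt1 ratio was as small as -0.77 over the 8 settings. In the controls all 3 genes were higher in females than in males, by ratios of 3.38, 3.55 and 2.04. Log2 signals of Mt2 were 14.53 in males given corn oil, 17.70 in males given AAI, 17.91 in females given corn oil and 15.37 in females given AAI, so that AAI-treated males reached the level of the female controls.

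The other 2 of the 5 higher genes in males were the protease inhibitor gene Serpina3n, with a ratio of 1.81, and Lrg1, a leucine-rich glycoprotein gene, with 1.18, and their female ratios were 0.40 and 0.39. The other 2 of the 5 lower genes in females were Vnn1, a pantetheinase gene, with a ratio of -1.18 that passed 2-fold in 6 of 8 settings, and Cd14, the lipopolysaccharide co-receptor gene, with -1.10, and their male ratios were -0.88 and -0.39. The fibrinogen genes Fgb and Fgg had ratios of 0.47 and 0.41 in females and 0.57 and 0.41 in males, under 2-fold in both sexes. None of the 12 genes whose products are made less in the acute phase was counted in either sex, with medians of -0.06 and -0.13. Among them Alb, albumin, had ratios of 0.00 in females and 0.03 in males, which ran from -0.37 to 0.05 and from -0.07 to 0.10 over the settings, at signals near the highest of the array. Ttr, transthyretin, had 0.11 in females, whose sign also differed, and -0.32 in males, with -0.83 on its dimmer probe.

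For the lists that follow, the shares over all genes were 1.37% higher and 3.09% lower in females, and 3.51% and 4.59% in males. Upstream of the plasma proteins, 15 of 17 ligand and receptor genes were tested. In females 0 were higher and 2 lower, the interleukin-1 genes Il1a and Il1b with ratios of -1.81 and -1.24, and in males 0 were higher and 2 lower, the cytokine receptor gene Lifr with -1.64 and Tnf with -1.23. Each of these 4 passed 2-fold in 7 of 8 settings, with a smallest size of -0.76 for Il1a, -0.75 for Il1b, -0.96 for Lifr and -0.73 for Tnf. Other probes gave smaller differences, of -1.004 to -0.02 for Il1b in females, and of -0.76 to -0.49 for Lifr and -0.23 for Tnf in males. Ratios of Il6, the main inducer of the response, were -0.25 in females and 0.15 in males, at log2 signals of 5.64 to 6.25 in the 4 pools. Of 18 signal transducer and transcription factor genes, Socs3, an inhibitor of Jak and Stat3 signaling that Stat3 itself induces, was the gene counted as higher in both sexes. Its log2 signal was 9.62 in males given corn oil, 10.82 in males given AAI, 9.43 in females given corn oil and 10.5031 in females given AAI. The ratio was 1.07 in females and 1.20 in males, and was as low as 0.91 and 0.95 among the alternatives, under a 2-fold difference. Of the same list Cebpb was lower in females with -1.07 and had -0.18 in males, and Pias3, an inhibitor of Stat3, was lower in males with -1.84 and had -0.42 in females. Cebpd had -0.95 in females, passing 2-fold in 4 of 8 settings, and 0.36 in males, and Stat3 0.07 in females, where its sign differed between alternatives, and 0.62 in males, where it was as small as 0.13 and its other probes ran from -0.85 to 0.63.

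Of 12 receptors and partners of the plasma proteins, 0 were higher and 1 was lower in females, the Fc receptor gene Fcgr1, to which pentraxins bind, with a ratio of -1.44, and 0 were higher and 1 of 11 was lower in males, Lrp2, megalin, an endocytic receptor of lipocalins, with -1.41. Over all genes 3.09% were lower in females and 4.59% in males, so 1 lower gene is no result about a list of this size. Neither Fcgr1 nor Lrp2 passed 2-fold throughout. Fcgr1 was as small as -0.91 and passed in 7 of 8 settings. Lrp2 was as small as -0.65 and passed in 6 of 8, with other Lrp2 probes from -1.28 to 0.27. Cd163, the macrophage receptor of haptoglobin-hemoglobin complexes, had log2 signals of 10.70 in males given corn oil, 9.70 in males given AAI, 10.07 in females given corn oil and 9.20 in females given AAI. Its ratios were -0.998 in males, just under a 2-fold difference, and -0.87 in females. A dimmer Cd163 probe gave 0.32 in males, in the other direction, and -0.64 in females, and the male ratio of the gene ran from -1.02 to -0.34 over the settings. The heme oxygenase gene Hmox1 had -0.32 in females, where its sign differed between alternatives, and -0.44 in males, and its dimmer probe gave 0.67 and 0.20, in the other direction.

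**Figure D4:**
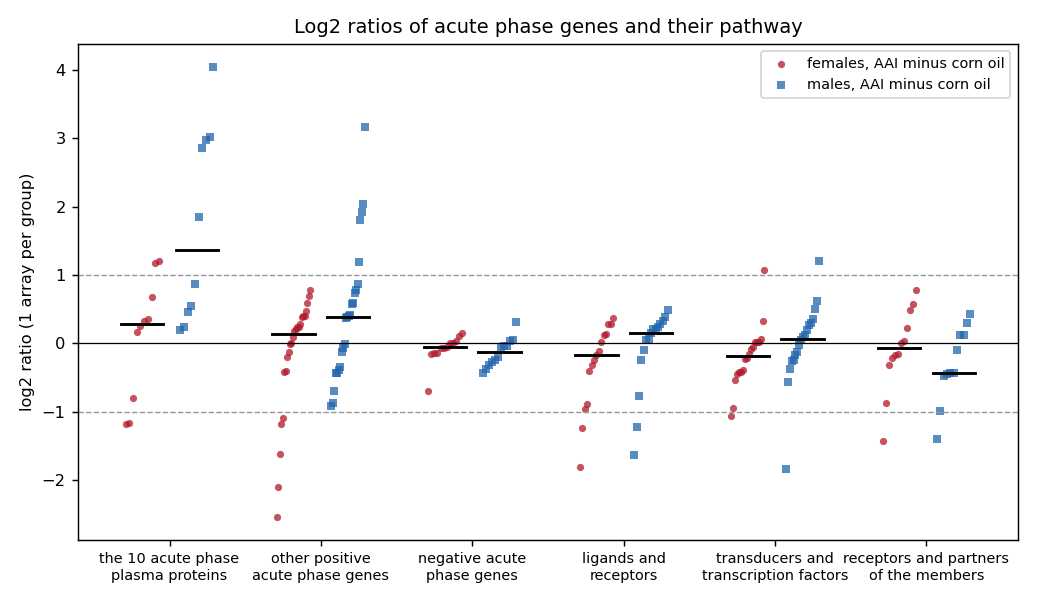
Log2 ratios of AAI-treated against corn oil-treated females (circles) and males (squares) for the 10 acute phase plasma protein genes and the genes of 5 lists of the same pathway, with 1 point per tested gene, the median of a list as a black line and a 2-fold difference as dashed lines. The medians of the plasma protein genes were 0.29 in females and 1.36 in males, and those of the negative acute phase genes -0.06 and -0.13.

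Marker genes of other tissues gave the ratios that stand beside the male values of the plasma proteins. Over all genes 1.37% were higher in females and 3.51% in males. Of the 12 fat markers, 7 were higher and 1 was lower in males, among them Ucp1, the uncoupling protein of brown fat, with 7.91, Cidea with 5.54, Retn with 4.08 and Cfd, adipsin, with 3.91, and in females 3 of 11 were higher, with Cfd at 3.51. Ucp1 was not well above background in either female pool. The carbonic anhydrase gene Car3 was the 1 that was lower in males, with log2 signals of 15.69 under corn oil and 13.78 under AAI. It was the brightest gene of the fat list by its mean over the 4 arrays. Its log2 signal was 14.68 in corn oil-treated females, where Adipoq and Ucp1 were not well above background. Whether the Car3 signal comes from fat was not tested. Of the 11 adrenal gland markers, 9 were higher in males, with the secretory granule gene Chgb at 7.79 and Star, the steroidogenic transport gene, at 4.49, and 0 in females. In AAI-treated males the brightest adrenal marker was the steroid hydroxylase gene Cyp21a1, with a log2 signal of 13.80 and a ratio of 3.78, and with a ratio of 0.46 on its dimmer probe. By the mean over the 4 arrays it was Nr5a1, a steroidogenic transcription factor gene, with a male ratio of 1.48 and of -0.28 on its dimmer probe. The muscle actin gene Acta1 had ratios of 8.08 in females and 6.80 in males. None of the kidney markers was counted in either sex, of 10 tested in females and 9 in males. The part of fat, adrenal gland and muscle in the plasma protein values was not tested, and Lcn2 and Saa3 are also expressed in fat.

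**Figure D5:**
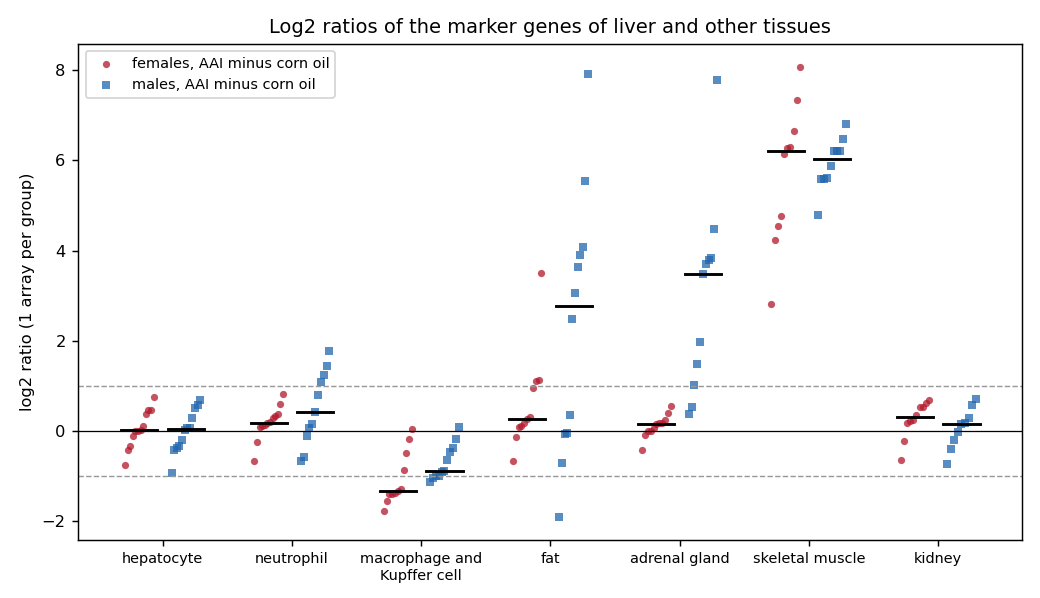
Log2 ratios of AAI-treated against corn oil-treated females (circles) and males (squares) for marker genes of liver cell types and of other tissues, with 1 point per tested gene (a bound where the probe was dim on 1 array), the median of a list as a black line and a 2-fold difference as dashed lines. The medians of the skeletal muscle markers were 6.21 in females and 6.04 in males, those of the adrenal gland markers 0.15 and 3.47, and those of the hepatocyte markers 0.02 and 0.04.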

How the data were processed

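Total liver RNA of 5 mice per group was pooled and measured on 1 Agilent single-color array, which limits the precision. The authors deposited the Feature Extraction 10.5.1.1 output of each array, which holds linear spot intensities without normalization between arrays. These were raw and after background subtraction and, except on the array of AAI-treated females, trend correction. The authors also deposited a table of raw and quantile normalized intensities, used as an alternative. In 2 of the output files, for the female control and the male AAI pool, values hold 3 significant digits and some gene names had been turned into dates, so that names were taken by probe from the other files. On the array of AAI-treated females the processed intensity equaled the background-subtracted one within 1% for 93.7% of spots, against 6.66% to 13.3% on the other arrays. Each ratio of AAI-treated against corn oil-treated females therefore compares signals without and with trend correction.

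Control and outlier spots were left out, spots of a probe were averaged, and log2 processed intensities of 56495 of 56605 probes were quantile normalized over the 4 arrays in Python 3.11.15 with numpy 2.4.6 and pandas 2.3.3. The brightest probe stood for each of 37021 genes. A ratio was counted at 2-fold where either array had the probe well above background, and was a bound where the probe was dim on the other. The normexp alternative (offset 50) was run in R 4.3.3 with limma 3.58.1. No test was made. The steps were tested on simulated data.

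The members and gene lists were chosen with earlier results of these data known. By rule the text names all members, of each other list genes counted at 2-fold (at most the 4 largest of a list) and the brightest markers, and the 3 genes nearest in pattern to each of 2 members. Named beside the rule, after their values were seen, were Lrg1, Vnn1, Cd14, Ngp, Mmp8, Ly6g, Camp, Elane, Ltf, Mpo, Ttr, Fgb, Fgg, Il6, Stat3, Cebpd, Cd163 and Hmox1. All 10 members and the accessions of 11 of the 12 probes were found in the RefSeq gene table (GRCm38.p6), which gave promoter sequences for 8 members. Protein sequences were not used here.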

Additional observations from a re-analysis of the deposited data

Results flagged for a closer look

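Several genes had log2 ratios of opposite sign in AAI-treated females and AAI-treated males, each against the corn oil-treated pool of the same sex. The ratio of Saa1 was -0.80 in females, under a 2-fold difference, and 2.86 in males, that of Saa2 was -1.18 and 2.97, and that of Saa3 was -1.16 and 0.23, of which the male value of Saa3 lies within the spread between probes of 1 gene. Among the other acute phase genes the ratio of Hamp2 was -2.10 in females and 1.92 in males, that of Mt1 was -1.62 and 2.04 on its brighter probe (0.09 and 1.65 on the dimmer probe), and that of Mt2 was -2.55 and 3.17. Each value rests on 1 array of pooled RNA per group. The difference between the sexes was not tested, and because females and males were given different doses, sex and dose cannot be told apart.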

How the results depend on the processing

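Each comparison was repeated under 10 alternatives. With a 3-fold threshold 0 members were counted in females instead of 4, and the other 29 counts of members stayed within 1.5 times the value given. No member that was counted changed direction, and 228 of 240 member ratios moved by less than the SD between probes. Some of the 240 could not move. Without the filter on dim probes no member ratio could change, because all member probes were well above background, and averaging probes could change only Lcn2 and Orm3. The ratios that crossed the 2-fold threshold are given next. They were Saa2 in females, with -0.88 under both normexp background correction and no multiplicative trend correction, Orm3 in females, with 0.998 under median scaling, Orm2 in males, with 1.09 under scaling to the 75th percentile and as 1 of 6 members counted under median scaling, and Apcs between the controls, with 1.01 under scaling to the 75th percentile. Averaging the probes of a gene gave 4.66 for Lcn2 and 2.43 for Orm3 in males.

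Over all genes, females had 434 higher and 978 lower genes, but 623 and 742 under scaling to the 75th percentile, 139 and 341 with normexp, 1078 and 1433 without the filter on dim probes, 127 and 225 at 3-fold and 2473 and 3152 at 1.5-fold. Males had 1071 and 1402, but 539 and 637 with normexp, 1793 and 2240 without the filter, 471 and 510 at 3-fold and 3022 and 3360 at 1.5-fold. The controls had 574 and 1184, but 222 and 471 with normexp, 1253 and 1823 without the filter, 155 and 378 at 3-fold and 2455 and 3090 at 1.5-fold. The cause of these shifts was not tested beyond what the threshold or filter itself sets. No scaling moved the median of all genes by more than 0.1 on the log2 scale.

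No paired analysis was possible because each group was 1 array of pooled RNA. For the same reason no array was left out. Variation between mice and between hybridizations was not measured.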
